A study of Homo sapiens with 4 samples.

Results

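Aldehyde dehydrogenases oxidise reactive aldehydes to carboxylic acids with NAD+ or NADP+ as the electron acceptor. The family includes enzymes that make retinoic acid, enzymes that clear aldehydes from ethanol and oxidised lipids, and mitochondrial enzymes at single steps of amino acid breakdown. A549 cells, a line from a human lung tumour, are known within this family for high ALDH1A1 and ALDH3A1. The 10 genes described here were ALDH1A1, ALDH1A3, ALDH1B1, ALDH2, ALDH3A1, ALDH3A2, ALDH3B1, ALDH4A1, ALDH6A1 and ALDH7A1. They were taken by symbol from 42113 gene models present in all 4 libraries, and all 10 were found. The genes were picked from the symbols of the family with their normalized counts and differences in these libraries known, so every difference below is a description of size and none is a test.

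The 4 RNA sequencing libraries came from A549 cells that stably carried a lentivirus for a short hairpin RNA (shRNA). The hairpin was a negative control or was directed at LIMA1, which encodes an actin-binding protein. Each line was left untreated or given 10 µM nutlin-3a, a small molecule that frees p53 from MDM2, and RNA was taken after 24 h. There was 1 library per group, so a difference between conditions and a difference between single cultures cannot be told apart, and neither can a lasting difference between the lines and an effect of the shRNA. Whether each line was a pool or a clone was not given in the sources used here. Libraries held 15.2 to 16.7 M fragments.

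Values are normalized counts: fragments per gene divided by 1 factor per library, with no division by gene length. Differences are between log2(normalized count + 1) values, and a call of higher or lower needed 1 or -1, which is about a doubling or a halving. Intervals after a difference cover counting error alone. A gene was measured at a mean of at least 30 over the 4 libraries. This held for 12742 genes and for all 10 members. In the libraries labelled LIMA1 shRNA, LIMA1 stood at 68.3 and 133 normalized counts untreated and with nutlin-3a, against 416 and 866 with control shRNA. CDKN1A, a p53 target that encodes p21, was 32.0-fold higher with nutlin-3a in control and 40.9-fold higher in LIMA1 shRNA cells. The 5 epithelial markers were all measured, with a summed level of 128940 to 157161, nearly all from KRT8 and KRT18. Of the other 3, EPCAM was at -1.04 and -1.37 with nutlin-3a in control and LIMA1 shRNA cells and at -1.47 and -1.81 with LIMA1 shRNA untreated and under nutlin-3a. KRT19 was called higher with nutlin-3a in both lines, by 1.42 in control cells, and was at 0.69 and 0.77 with LIMA1 shRNA, and CDH1 was under the size for a call throughout. None of the 7 alveolar type II markers was measured (summed level 12.9 to 32.8), and the surfactant genes SFTPA1 and SFTPB were at 0 in all 4 libraries. Fibroblast markers summed to 140 and 73.2 untreated in control and LIMA1 shRNA cells and to 63.5 and 30.02 with nutlin-3a, mostly from COL1A1 and LUM, with COL1A2 at 0 throughout. Endothelial markers summed to 3.22 to 12.9. Leukocyte markers summed to 87.1 to 109, mostly from CD14, with CD3E at 0 throughout. The part of these marker differences in the results below was not tested. In bulk RNA, fewer cells of a type and less RNA per cell cannot be told apart.

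ALDH1A1 drew more fragments than any other gene model in each of the 4 libraries. It encodes a cytosolic enzyme that converts retinaldehyde to retinoic acid. Its share of all fragments was 1.35% and 1.19% in untreated control and LIMA1 shRNA cells, and 1.83% and 1.39% with nutlin-3a. The 10 genes together held 1.60% (exact binomial 95% interval 1.60% to 1.61%) and 1.41% (1.41% to 1.42%) of the untreated libraries. With nutlin-3a they held 2.74% (2.73% to 2.75%) and 2.21% (2.21% to 2.22%). The part of this sum in ALDH1A1 was 84.4% and 83.9% untreated, and 66.9% and 62.8% with nutlin-3a. ALDH3A1 was the second highest gene model by fragments in control cells with nutlin-3a and the third in LIMA1 shRNA cells with nutlin-3a.

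Levels were compared between genes per kb of the longest coding transcript in GENCODE 29. ALDH1A1 was highest, with a mean of 109243 normalized counts per kb (range over the 4 libraries 91872 to 136644). ALDH3A1 came next at 36291 (10395 to 63010), and its range did not reach that of ALDH1A1. ALDH3A2 at 1389 (1172 to 1693) and ALDH3B1 at 1160 (871 to 1795) overlapped in range. Below them ALDH1B1 (556), ALDH2 (473), ALDH7A1 (376) and ALDH4A1 (246) formed a chain in which each overlapped in range with the one after it, and ALDH4A1 did not reach down to the next gene. ALDH6A1 at 82.2 (69.1 to 93.3) overlapped with ALDH1A3 at 49.7 (29.5 to 71.8), the lowest. With the median length of the coding transcripts in its place, ALDH7A1 (874) stood above ALDH2 (812), and the other 8 kept their places.

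**Figure D1:**
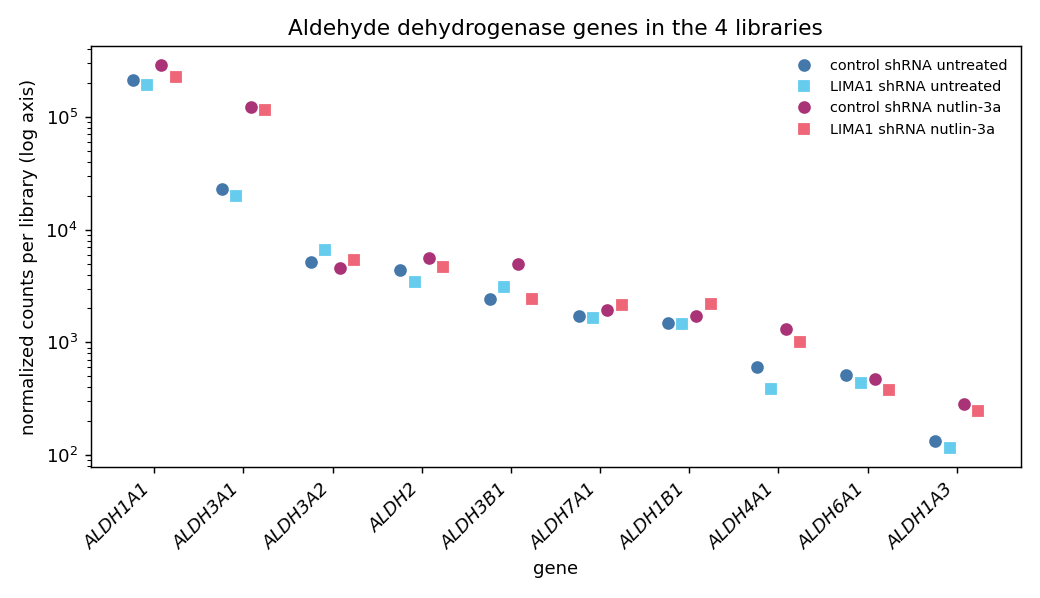
Normalized counts of the 10 genes (x axis, ordered by mean) in each of the 4 libraries (log y axis); each point is 1 library. ALDH1A1 lies between 193575 and 287908 in all 4 libraries, while ALDH3A1 is at 22883 and 20011 untreated and at 121294 and 115255 with nutlin-3a.

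With nutlin-3a, ALDH3A1 showed the largest difference of the 10 genes in both lines. ALDH3A1 encodes a cytosolic enzyme that acts on aromatic and medium-chain aldehydes and is abundant in the cornea. It stood at 22883 normalized counts in untreated control cells, 20011 in untreated LIMA1 shRNA cells, 121294 in control cells with nutlin-3a and 115255 in LIMA1 shRNA cells with nutlin-3a. Both nutlin-3a libraries were far above both untreated libraries, and the lines were close within each treatment. The nutlin-3a difference was 2.41 (2.39 to 2.43), or 5.30-fold, in control cells and 2.53 (2.50 to 2.55), or 5.76-fold, in LIMA1 shRNA cells. Of all measured genes, 134 had a larger difference in control cells and 161 in LIMA1 shRNA cells.

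In control cells 4 of the 10 genes were called higher with nutlin-3a and 0 lower; of all measured genes 5.54% were called higher and 5.64% lower. In LIMA1 shRNA cells 3 were called higher and 0 lower, against 7.29% and 6.08% of all measured genes. ALDH3A1, ALDH4A1 and ALDH1A3 were called in both lines and ALDH3B1 in control cells. The median over the 10 genes was 0.40 in control and 0.41 in LIMA1 shRNA cells, and over all measured genes -0.02 in both. Above 0 were 8 and 7 of the 10 genes, against 48.5% of all measured genes in each line. These counts include ALDH1A3, ALDH3B1 and ALDH6A1, whose values were not whole fragments in at least 1 library. Summed with the neighbouring gene models described below, 2 genes were called higher in control cells and 3 in LIMA1 shRNA cells.

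ALDH4A1, the mitochondrial enzyme that turns the proline breakdown product pyrroline-5-carboxylate into glutamate, has been described as a p53-inducible gene. Its normalized counts were 607 and 388 untreated in control and LIMA1 shRNA cells, and 1308 and 1007 with nutlin-3a. Within each treatment the LIMA1 shRNA library was the lower one, and both nutlin-3a libraries lay above both untreated ones. With nutlin-3a ALDH4A1 was higher by 1.11 (0.97 to 1.25) in control and by 1.37 (1.20 to 1.55) in LIMA1 shRNA cells.

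ALDH1A3, which like ALDH1A1 makes retinoic acid from retinaldehyde, had few fragments. Its normalized counts were 134 and 116 in untreated control and LIMA1 shRNA cells, and 282 and 249 with nutlin-3a. Within each line the nutlin-3a library was the higher one, as it was for ALDH3A1, ALDH4A1, ALDH1A1, ALDH2, ALDH1B1 and ALDH7A1. The nutlin-3a difference was 1.06 (0.78 to 1.38) in control and 1.10 (0.78 to 1.44) in LIMA1 shRNA cells, and both intervals reached below the size for a call. With a pseudocount of 30 the differences were 0.92 and 0.94. Its fragments became whole in all 4 libraries when those of the noncoding model lnc-CHSY1-5 were added. That sum was higher with nutlin-3a by 0.96 (0.69 to 1.25) and 1.07 (0.76 to 1.41).

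Sequence before the gene start is shown for ALDH1A3 and ALDH4A1, whose deposited rows were called higher with nutlin-3a in both lines, and for ALDH1A1, the gene with the most fragments. These are the 250 bases before the RefSeq start on GRCh38.p14, read along the gene's strand, at chr15:100879581-100879830 (plus strand), chr1:18902556-18902805 (minus strand, the first of 2 listed starts) and chr9:72953054-72953303 (minus strand). RefSeq windows were found for 8 of the 10 genes; ALDH2 and ALDH3A1 had none. Capitals mark matches on either strand to GCGTG, the core bound by the aryl hydrocarbon receptor, or to CCAAT.
ALDH1A3: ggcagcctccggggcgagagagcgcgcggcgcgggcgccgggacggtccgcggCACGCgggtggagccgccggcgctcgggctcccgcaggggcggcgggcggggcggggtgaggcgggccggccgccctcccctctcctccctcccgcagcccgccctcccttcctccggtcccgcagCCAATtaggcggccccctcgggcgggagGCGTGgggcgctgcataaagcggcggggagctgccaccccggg
ALDH4A1: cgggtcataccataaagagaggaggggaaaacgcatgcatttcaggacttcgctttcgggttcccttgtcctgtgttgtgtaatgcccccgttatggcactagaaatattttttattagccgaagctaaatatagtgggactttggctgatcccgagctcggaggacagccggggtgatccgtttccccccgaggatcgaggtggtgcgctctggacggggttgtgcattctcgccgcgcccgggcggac
ALDH1A1: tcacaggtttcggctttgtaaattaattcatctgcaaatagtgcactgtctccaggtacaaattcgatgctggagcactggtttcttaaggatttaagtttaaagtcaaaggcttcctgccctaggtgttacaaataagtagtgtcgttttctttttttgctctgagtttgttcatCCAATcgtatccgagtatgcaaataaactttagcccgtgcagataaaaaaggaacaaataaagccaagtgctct
The ALDH1A3 window was 82.4% G or C with 38 CG pairs, that of ALDH4A1 55.6% with 19, and that of ALDH1A1 38.4% with 6. The medians over 35116 RefSeq windows of the same length were 58.0% and 11. ALDH1A3 had GCGTG matches starting 197 and 43 bases before the gene start and a CCAAT match 71 bases before it, none overlapping. ALDH1A1 had 1 CCAAT match, 74 bases before the start, and ALDH4A1 had no match to either. Of all windows 32.2% held GCGTG and 32.0% CCAAT. Matches to TATAAA (10.7% of windows), to TGACNNNGC, a core of the antioxidant response element (10.9%), and to the p53 decamer consensus (5.57%) were searched on both strands too, with 0 found in all 11 windows of the 8 genes. No match says only that these letters are not in these bases.

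ALDH3B1, a membrane-bound enzyme for lipid-derived aldehydes, was the gene of the 10 that differed most between the lines in its nutlin-3a difference. Its row read 2433 and 3070 normalized counts in untreated control and LIMA1 shRNA cells, 5001 in control cells with nutlin-3a and 2427 in LIMA1 shRNA cells with nutlin-3a. The control nutlin-3a library stood alone above the other 3. The nutlin-3a difference of the row was 1.04 (0.97 to 1.11) in control and -0.34 (-0.42 to -0.26) in LIMA1 shRNA cells. The difference between these, -1.38 (-1.48 to -1.27), was lower than in all but 53 of the measured genes. The intervals of this row take its fragments as counted, though they were not whole numbers. They do not cover any division of fragments between gene models.

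The ALDH3B1 fragments were not whole numbers, and they became whole in all 4 libraries when lnc-NDUFS8-1 and lnc-UNC93B1-1 were added, to within 0.0042 of a fragment. These are noncoding gene models named after genes near ALDH3B1. GENCODE 29, on another build than the deposited values, showed no other gene over an exon of ALDH3B1. The link therefore rests on these names and on the whole sums, which were chosen after seeing the data. The sums were 4321 and 4487 fragments untreated, in control and LIMA1 shRNA cells, and 7862 and 7697 with nutlin-3a. ALDH3B1 held 59.7%, 69.1%, 64.1% and 29.4% of these sums, in that order. Most of the rest was in lnc-NDUFS8-1, at 1591, 1313, 2725 and 5688 normalized counts. As a sum, the 3 gene models stood at 4073 and 4440 normalized counts untreated and at 7804 and 8251 with nutlin-3a. Both nutlin-3a libraries were then above both untreated ones, and the lines were close within each treatment. The sum was higher with nutlin-3a by 0.94 (0.88 to 0.99) in control and by 0.89 (0.84 to 0.95) in LIMA1 shRNA cells, and these differed by -0.04 (-0.12 to 0.03).

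**Figure D2:**
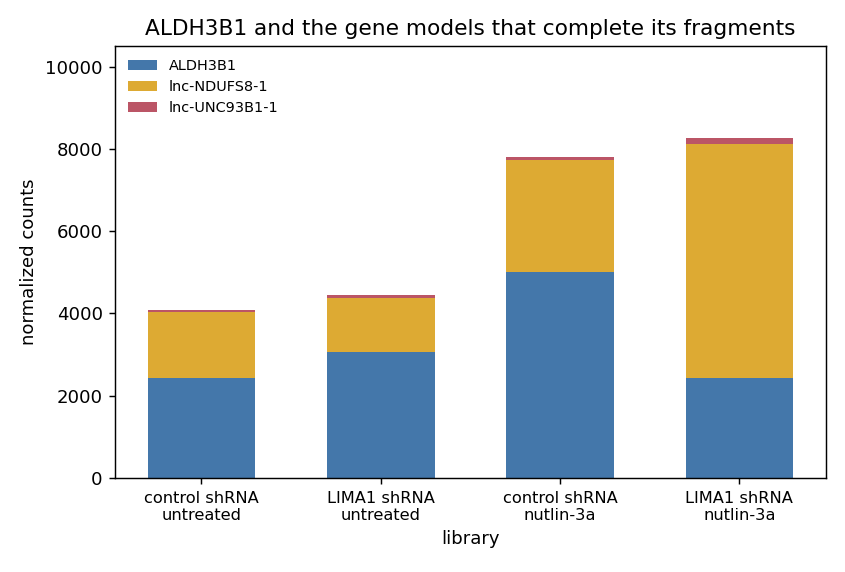
Normalized counts (y axis, from 0) of ALDH3B1 and the 2 neighbouring noncoding gene models in each library, stacked. The stack reaches 7804 and 8251 in the nutlin-3a libraries of the control and LIMA1 shRNA lines, whereas the ALDH3B1 part is 5001 in one and 2427 in the other.

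The retinoic acid enzyme ALDH1A1 was under the size for a call with nutlin-3a. Its normalized counts were 213494 and 193575 untreated and 287908 and 225725 with nutlin-3a, in control and LIMA1 shRNA cells. The control nutlin-3a library was the highest. ALDH1A1 was higher with nutlin-3a by 0.43 (0.42 to 0.44) in control and by 0.22 (0.21 to 0.23) in LIMA1 shRNA cells. The intervals are narrow because so many fragments were counted, and they say nothing of how far 2 cultures of 1 group would differ.

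The mitochondrial enzymes of acetaldehyde oxidation were also higher with nutlin-3a by less than 1. ALDH2, the main acetaldehyde enzyme, had 4359 and 3444 normalized counts untreated and 5591 and 4709 with nutlin-3a. It was higher with nutlin-3a by 0.36 (0.30 to 0.42) in control and by 0.45 (0.39 to 0.52) in LIMA1 shRNA cells. ALDH1B1, a mitochondrial enzyme close in sequence to ALDH2, had 1487 and 1448 untreated and 1700 and 2184 with nutlin-3a. The LIMA1 shRNA nutlin-3a library was the highest of its 4. Its difference was 0.19 (0.09 to 0.29) in control and 0.59 (0.50 to 0.69) in LIMA1 shRNA cells.

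ALDH7A1, also called antiquitin, oxidises an aldehyde of lysine breakdown. It had 1709 and 1660 normalized counts untreated and 1957 and 2142 with nutlin-3a, higher by 0.20 (0.10 to 0.29) and 0.37 (0.27 to 0.46). Its 4 libraries spanned 0.37, the narrowest range of the 10 genes. ALDH6A1, which acts in valine and thymine breakdown, had 513 and 438 untreated and 477 and 380.0 with nutlin-3a. Its nutlin-3a differences were -0.10 (-0.28 to 0.08) and -0.21 (-0.41 to -0.0032). Its fragments were whole when summed with CCDC176 and lnc-C14orf45-1. The sums differed by -0.09 (-0.26 to 0.08) and -0.16 (-0.35 to 0.04), and these intervals included 0 in each line. CCDC176, also named BBOF1, overlaps ALDH6A1 on the opposite strand in GENCODE 29, and whether the counting used strand is not known here.

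ALDH3A2 encodes the fatty aldehyde dehydrogenase of the endoplasmic reticulum, which also takes the aldehyde from sphingosine-1-phosphate breakdown. It was the other gene below 0 in both lines. Its normalized counts were 5207 and 6649 untreated and 4602 and 5371 with nutlin-3a, and within each treatment the LIMA1 shRNA library was the higher one. The nutlin-3a difference was -0.18 (-0.23 to -0.12) in control and -0.31 (-0.36 to -0.25) in LIMA1 shRNA cells.

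**Figure D3:**
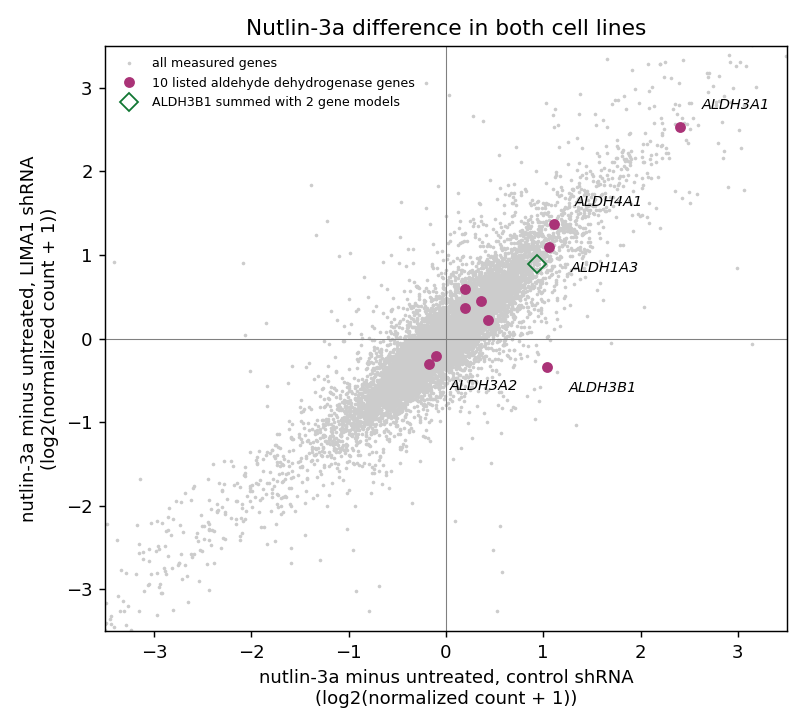
Nutlin-3a difference in control shRNA cells (x axis) against that in LIMA1 shRNA cells (y axis), log2(normalized count + 1); grey points are measured genes (268 lie outside the axes), filled points the 10 genes. ALDH3A1 lies at 2.41 and 2.53, and ALDH3B1 moves from 1.04 and -0.34 to 0.94 and 0.89 when summed with 2 gene models (open diamond).

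Between the lines, ALDH3B1 was the 1 gene of the 10 that reached the size for a call, and it did so as its deposited row alone. These comparisons share libraries with those of nutlin-3a. In untreated cells 0 of 10 were called in either direction, against 1.04% of all measured genes higher and 2.05% lower. Under nutlin-3a 0 were called higher and 1 lower, ALDH3B1, against 1.26% and 1.94%. In the comparison of responses (nutlin-3a difference in LIMA1 shRNA minus control cells) 0 were called higher and 1 lower, again ALDH3B1, against 1.27% and 0.816%, and 6 of 10 were above 0, against 52% of all measured genes. As a sum with its 2 gene models, ALDH3B1 differed between the lines by 0.12 (0.06 to 0.19) untreated and 0.08 (0.03 to 0.13) under nutlin-3a, so that 0 of 10 genes were called in any of these 3 comparisons.

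Below the size for a call, the LIMA1 shRNA difference in untreated cells was above 0 for 2 of the 10 genes, against 54.4% of all measured genes. The medians were -0.17 over the 10 genes and 0.02 over all measured genes. For 3 of the 8 genes below 0, ALDH1A3, ALDH1B1 and ALDH7A1, the counting interval included 0. Under nutlin-3a 3 of 10 were above 0, against 54.6%, with medians of -0.21 and 0.03, and with the summed values 4 were. ALDH4A1 had the largest difference untreated, -0.64 (-0.83 to -0.46), and was at -0.38 (-0.50 to -0.26) under nutlin-3a. ALDH2 was at -0.34 (-0.40 to -0.28) and -0.25 (-0.30 to -0.19). ALDH1A1 was at -0.14 (-0.15 to -0.13) and -0.35 (-0.36 to -0.34).

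The other members split. ALDH3A1 was at -0.19 (-0.22 to -0.17) and -0.07 (-0.09 to -0.06), and ALDH6A1 at -0.23 (-0.41 to -0.04) and -0.33 (-0.53 to -0.13). ALDH1A3, at -0.21 (-0.57 to 0.15) and -0.18 (-0.44 to 0.07), was within counting error of 0, as was its sum with lnc-CHSY1-5 (-0.33, -0.68 to 0.02, untreated). The fatty aldehyde enzyme ALDH3A2 was higher with LIMA1 shRNA in both treatments, by 0.35 (0.30 to 0.40) and 0.22 (0.16 to 0.28). ALDH1B1 was at -0.04 (-0.14 to 0.06) untreated and 0.36 (0.27 to 0.45) under nutlin-3a, and ALDH7A1 at -0.04 (-0.14 to 0.06) and 0.13 (0.04 to 0.22).

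**Figure D4:**
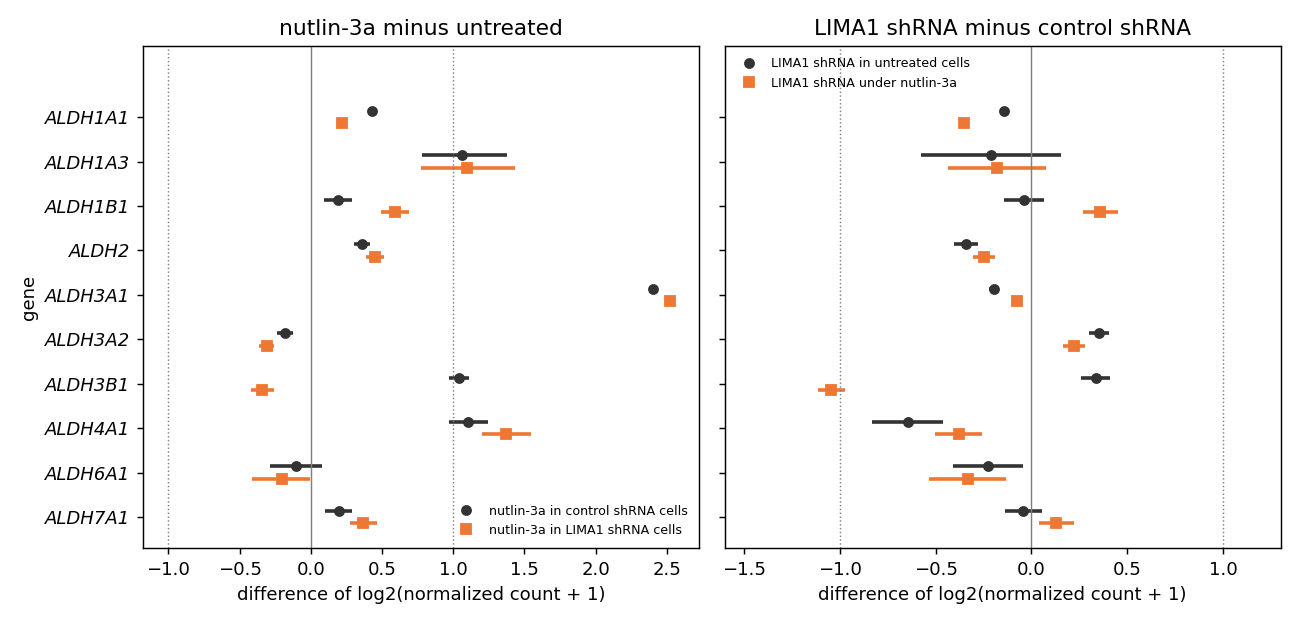
Differences of log2(normalized count + 1) for the 10 genes (y axis): nutlin-3a minus untreated in each line (left) and LIMA1 shRNA minus control shRNA in each treatment (right). Bars are 95% counting intervals and dotted lines the size of 1; ALDH3A1 lies at 2.41 and 2.53 on the left, and on the right only the ALDH3B1 row, at -1.04, passes a dotted line.

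The other 9 genes of the family were all in the files and 6 were measured; ALDH1A2, ALDH3B2 and ALDH8A1 had at most 4.29 normalized counts. Of the 6, 1 was called higher and 0 lower with nutlin-3a in control cells (median -0.15), and 1 higher and 1 lower in LIMA1 shRNA cells (median -0.25), against 5.54% and 5.64% of all measured genes in control and 7.29% and 6.08% in LIMA1 shRNA cells. ALDH1L1, the cytosolic formyltetrahydrofolate dehydrogenase, was higher with nutlin-3a by 1.27 and 1.37. With LIMA1 shRNA it was lower, at -1.52 untreated and -1.42 under nutlin-3a. It was low, at 27.3 and 8.91 normalized counts untreated in control and LIMA1 shRNA cells, and 67.5 and 24.7 with nutlin-3a. It passed the minimum mean of 30 only through the control nutlin-3a library, so its calls rest in part on that filter. Its mitochondrial counterpart ALDH1L2 had 350 and 673 untreated and 224 and 310 with nutlin-3a. ALDH1L2 was at -0.64 with nutlin-3a in control and at -1.12 in LIMA1 shRNA cells. ALDH5A1, which oxidises succinic semialdehyde, was at 0.49 and 0.64 with nutlin-3a, and ALDH16A1 at -0.78 and -0.67. With LIMA1 shRNA 0 of the 6 were called higher and 1 lower in each treatment, ALDH1L1. Over all measured genes the shares were 1.04% and 2.05% untreated, and 1.26% and 1.94% under nutlin-3a.

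Among 31 genes of proline, branched-chain amino acid and lysine metabolism, 29 were measured. With nutlin-3a 2 were called higher and 1 lower in control cells, and 2 higher and 2 lower in LIMA1 shRNA cells, with medians of 0.08 and -0.0018. Of all measured genes 5.54% were called higher and 5.64% lower in control cells, and 7.29% and 6.08% in LIMA1 shRNA cells, so the list's shares were near the background. PRODH, the proline dehydrogenase one step before ALDH4A1 and a known p53-induced gene, was higher by 2.09 and 2.76, at 181 and 126 normalized counts untreated and 772 and 857 with nutlin-3a. ABAT, a 4-aminobutyrate transaminase, was higher by 2.22 and 2.16. ABAT was low untreated, at 33.0 and 24.7 normalized counts in control and LIMA1 shRNA cells, and stood at 158 and 114 with nutlin-3a. It passed the minimum mean for a measured gene only through its nutlin-3a libraries, so its calls rest in part on that filter. The branched-chain transaminase BCAT1 was at -1.20 and -1.87 with nutlin-3a and at 1.01 with LIMA1 shRNA in untreated cells, the 1 gene of the list called between the lines. Over all measured genes 1.04% were called higher and 2.05% lower with LIMA1 shRNA untreated, and 1.26% and 1.94% under nutlin-3a. PYCR1, which makes proline from pyrroline-5-carboxylate and whose values were not all whole fragments, was at -0.73 and -1.11.

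Of 23 retinoid genes 14 were measured, with medians of 0.15 and 0.26 for nutlin-3a in control and LIMA1 shRNA cells. In each line 1 was called higher and 0 lower, the retinol dehydrogenase gene DHRS9 (1.27 and 1.62, at 21.7 to 154 normalized counts), and 1 of 14 is near the 5.54% and 7.29% of all measured genes. Between the lines DHRS9 was higher with LIMA1 shRNA by 1.15 untreated and 1.51 under nutlin-3a, and the retinol carrier RBP4 was at -1.85 and -1.80. So 1 of 14 was called higher and 1 lower in each treatment. Of all measured genes 1.04% were called higher and 2.05% lower untreated, and 1.26% and 1.94% under nutlin-3a. A count of 1 in 14 is too few to compare with these shares. Medians of the list between the lines were -0.0021 and -0.01.

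All 27 NRF2 target genes were measured; NRF2 is the antioxidant response factor that A549 cells carry in active form. With nutlin-3a 1 was called higher in each line and 0 lower, the glutathione peroxidase GPX2 (1.11 and 1.03), and 1 of 27 is no larger a share than the 5.54% and 7.29% of all measured genes. The medians were 0.21 and 0.07, against -0.02 over all measured genes in both lines. Above 0 were 22 of 27 in control and 17 in LIMA1 shRNA cells, against 48.5% of all measured genes in each line. With LIMA1 shRNA 0 of 27 were called in either treatment (medians 0.17 and 0.06, against 0.02 and 0.03 over all measured genes). Of all measured genes 1.04% were called higher and 2.05% lower untreated, and 1.26% and 1.94% under nutlin-3a. Above 0 with LIMA1 shRNA were 22 of 27 untreated and 18 under nutlin-3a, against 54.4% and 54.6%. The aryl hydrocarbon receptor list held the receptor AHR, its partner ARNT and 8 genes that the receptor is known to act on, as it does on ALDH3A1. Of these 10 genes 8 were measured and 0 were called in any comparison. With nutlin-3a 5.54% of all measured genes were called higher and 5.64% lower in control cells. In LIMA1 shRNA cells these shares were 7.29% and 6.08%, so 0 of 8 is near the background. The nutlin-3a medians of this list were 0.17 and 0.14. CYP1A1, the best-known target of the receptor, had at most 3.96 normalized counts.

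Of 7 alcohol dehydrogenases 3 were measured and 0 were called in any comparison (nutlin-3a medians 0.03 and -0.01). With nutlin-3a 5.54% of all measured genes were called higher and 5.64% lower in control cells. In LIMA1 shRNA cells these shares were 7.29% and 6.08%, so 0 of 3 is near the background. ADH5, the formaldehyde-clearing enzyme, was at 1622 to 1674 normalized counts in all 4 libraries. The sphingolipid and fatty aldehyde route of ALDH3A2 had 7 of 9 genes measured and 0 called (medians 0.03 and -0.02), also near the background. With LIMA1 shRNA 7 of these 7 were above 0 untreated and 6 under nutlin-3a, against 54.4% and 54.6% of all measured genes. These differences were small, with medians of 0.10 and 0.08, against 0.02 and 0.03 over all measured genes. SPHK2 was at 0.0088 untreated, and ADH5 at 0.046 untreated and 0.0014 under nutlin-3a. Scaling to equal totals moved the median of all measured genes by -0.05 in each of these comparisons, so signs this near 0 depend on the scaling. In the ethanol and formaldehyde list 5 of 6 were measured. With nutlin-3a 0 were called in control cells and 1 lower in LIMA1 shRNA cells, with medians of 0.03 and -0.01. That gene was the mitochondrial serine hydroxymethyltransferase SHMT2, at -1.16, and at -0.92 in control cells. In LIMA1 shRNA cells 6.08% of all measured genes were called lower, and 1 gene of 5 is too few to compare with that share.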

How the data were processed

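RNA sequencing of total RNA was used from 4 libraries, grouped by their titles, which write si where the protocols write shRNA. Named with no role or order, per the submitters' processing notes, are Cuffnorm 2.2.1, Bowtie2 2.0.12, bcl2fastq 1.8.3 and the build hg19. No gene annotation is stated in the sources used here. The deposited signal per gene was found, from the values, to be fragments divided by 1 factor per library. What 1 fragment is worth (0.943, 0.990, 0.993 and 1.07) was read from the low values. Between 0.5 and 1000 fragments, 85.5% to 86.3% of values were within 0.1 of a whole number, under the 95% needed for a count test. With 1 library per group no test was run and no p-value is given. Intervals are exact Clopper-Pearson 95% intervals of the fragments of 2 libraries, rounded to whole fragments; those of a difference of responses use a normal approximation over 4 libraries. They cover counting error only, as there were no molecular identifiers. For the rows of ALDH1A3, ALDH3B1 and ALDH6A1, which were not whole, they leave out any division of fragments between gene models.

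Of the 10 genes, 5 had whole fragments in all libraries, 3 did not, and ALDH1A1 and ALDH3A1 were too high in at least 1 library (above 20000 fragments) to check. For the 3, gene models named after the 5 protein-coding neighbours on each side (RefSeq order) were searched for sets of up to 3 whose sum was within 0.02 of whole in all 4 libraries. Exactly 1 set was found for each. This sum was chosen after seeing the data. Lengths of 11240 of 12742 measured genes (88.2%) came from GENCODE 29, on another build than the files. Named beside the 10 genes are up to 4 members of each of 8 gene lists past the size of 1 in a comparison, the label checks LIMA1 and CDKN1A, and the 3 genes nearest in pattern to each of the 3 members with the widest range. ALDH5A1, ALDH16A1, ADH5, CYP1A1 and the genes beside ALDH3A1 were named after their values were seen. The members and lists were chosen with earlier results of these data known. Calls and intervals were tested on simulated counts. Alternatives were other pseudocounts, scalings, filters and sizes. Python 3.11.15, numpy 2.4.6, pandas 2.3.3, scipy 1.17.1 and matplotlib 3.10.9 were used.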

Additional observations from a re-analysis of the deposited data

Results flagged for a closer look

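ALDH3B1 is listed because its deposited row differs in sign between groups, with 1 library in each, so the difference was not tested. The row was higher with nutlin-3a in control cells and lower in LIMA1 shRNA cells, and equally higher with LIMA1 shRNA untreated and lower under nutlin-3a, a difference of -1.38 in either reading. Summed with lnc-NDUFS8-1 and lnc-UNC93B1-1, which make its fragments whole, the difference was -0.04 and the nutlin-3a differences had the same sign in both lines.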

How the results depend on the processing

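Over 50 single-gene differences (10 genes in 5 comparisons), 0 changed sign with pseudocounts of 0.1, 10 or 30, with upper-quartile scaling or equal totals, with a mean of at least 150, or without a filter on low values. The largest move was 0.16, for ALDH1A3 in LIMA1 shRNA cells with a pseudocount of 30. Upper-quartile scaling moved the median of all measured genes by at most 0.08. Summing ALDH1A3, ALDH3B1 and ALDH6A1 with neighbouring gene models changed 2 signs, both of ALDH3B1: the LIMA1 shRNA difference under nutlin-3a was 0.080, and nutlin-3a in LIMA1 shRNA cells was 0.89. The genes called higher with nutlin-3a in control cells were then 2, and those called lower under nutlin-3a or in the comparison of responses 0. With a size of 2, nutlin-3a left 1 gene higher in each line, ALDH3A1, and 0 were lower in the other 2 comparisons. With a size of 0.58, 1 gene was lower with LIMA1 shRNA in untreated cells, ALDH4A1, and 4 were higher with nutlin-3a in LIMA1 shRNA cells, ALDH1B1 being added. ALDH1A3 had 117 to 284 fragments, and its differences between the lines were not detectable at this depth. The labels give no replicate numbers to pair libraries by, and a fit of line and treatment as additive terms, with 1 residual degree of freedom, was not run.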

Other observations

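ALDH3A2 and ALDH3A1 lie near each other, with SLC47A2 as the 1 protein-coding gene between them in RefSeq order. ALDH3A1 was higher with nutlin-3a by 2.41 and 2.53 in control and LIMA1 shRNA cells, while ALDH3A2 was at -0.18 and -0.31. SLC47A2 had at most 4.96 normalized counts. The genes on the outer sides, the transporter SLC47A1 (0.31 and 0.34) and the kinase ULK2 (-0.02 and 0.02), were both under the size for a call.

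The genes nearest in pattern were found by distance between log2(normalized count + 1) values centred on each gene's mean, over 4 libraries and 9990 genes with a mean of at least 150 outside the family. For ALDH3A1 they were the calcium channel gene ORAI3 (distance 0.17), lnc-ABCB4-1 (0.20) and ANKRA2 (0.20), with 28 genes within 0.5. ORAI3 and lnc-ABCB4-1 had values that were not whole fragments. For ALDH4A1 they were MAGEH1 (0.09), PNPLA4 (0.11) and SARM1 (0.14), with 133 genes within 0.5; SARM1 had no whole values. For ALDH1A3 they were the adaptor gene SHC1 (0.06), HLA-DMA (0.08) and PROCR (0.09), with 525 genes within 0.5. With 4 libraries such likeness is common and describes these libraries.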
